A study of Mus musculus with 4 samples.

Results

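Heat shock proteins and chaperonins of the mouse aorta were followed through 4 h of estradiol (E2) treatment in wild-type (WT) aortas and in aortas in which rapid estrogen receptor signalling is blocked. They were taken by symbol: the Hsp70, Hsp90 and small heat shock protein genes, the Dnaja, Dnajb and Dnajc genes of J-domain co-chaperones, the Cct subunits of the cytosolic chaperonin, and Cryab. Of 83 protein-coding symbols of this kind, 69 had a probe set that names a single gene, 20 of these stayed below a log2 level of 5 in every group, and 49 were kept among 5151 genes kept in all. By residence of the protein, 30 of the 49 are cytosolic or nuclear, 9 belong to the endoplasmic reticulum (ER), 7 to mitochondria, and 3 (Dnajc4, Dnajc13 and Dnajc27) were assigned to none of these. The families were 26 J-domain co-chaperones, 9 chaperonins, 7 Hsp70 proteins, 5 small heat shock proteins and 2 Hsp90 proteins. At the level threshold, Dnajc27 and Dnajc14 were just inside with highest group levels of 5.17 and 5.33, and Hspa14 and Dnajc9 were just outside with 4.99 and 4.73.

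All 4 groups were aortas of female C57BL/6 mice, 12 to 14 weeks old, whose ovaries were removed 1 week before the aortas were taken. Disrupting peptide mice (DPM) carry a transgene, driven by the CMV promoter, for residues 176 to 253 of estrogen receptor alpha. The peptide keeps the receptor from binding striatin and thereby blocks its fast signalling to kinases outside the nucleus. WT and DPM aortas were held ex vivo for 4 h with 10 nM E2 or with the ethanol in which it was dissolved, and each sample pooled 4 aortas. RNA was hybridized to Affymetrix mouse arrays. By their titles the E2 groups had 2 replicates each and the vehicle groups 3, while the values used here are 1 level per group. Whether those replicates came from separate pools of aortas is not stated, so the p-values measure only the spread between arrays, which may be technical. With 1 error per gene in the fit, these replicate numbers would give the WT and DPM differences equal errors. The DPM errors worked back from the p-values were 1.33 times the WT errors. The number of arrays behind each difference is therefore uncertain. The CMV promoter is not confined to vessel wall cells. The single Esr1 probe set stood between 2.31 and 2.33 in the 4 groups, beside a lowest level of 2.29 on the array, and its position relative to the transgene was not examined, so it does not check the genotype labels.

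Chaperones bind unfolded chains and keep them from clumping. Hsp70 proteins bind and release short hydrophobic stretches in a cycle of ATP hydrolysis, which J-domain proteins start and nucleotide exchange factors reset. Hsp90 completes the folding of signalling proteins, among them steroid receptors, which it holds ready for hormone together with Hsp70 and co-chaperones. Chaperonins are ring-shaped chambers: the Cct complex folds actin and tubulin in the cytosol, and Hspd1 with its lid Hspe1 folds proteins imported into mitochondria. Small heat shock proteins hold denaturing proteins without using ATP and are abundant in muscle. The cytosolic genes are induced through heat shock factor 1, which binds repeated GAA units called heat shock elements, and many ER genes through the unfolded protein response, whose factors bind the ER stress element.

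Promoters of 4 members are shown because they carry these elements and because the genes stand for the cytosolic, mitochondrial and ER branches. Each is the RefSeq window of 300 bases around the gene start in GRCm38.p6, printed 5′ to 3′ on the gene's strand, with the matched motifs in capitals. The Hspa1b window, of the stress-inducible cytosolic Hsp70, lies on the minus strand at chr17:34959189-34959488. The Dnajb4 window, of a cytosolic J-domain protein, lies on the minus strand at chr3:152193796-152194095. The Hspe1 window lies on the plus strand at chr1:55087898-55088197 and the Hspa5 window, of the ER Hsp70 protein BiP, on the plus strand at chr2:34771840-34772139.
Hspa1b: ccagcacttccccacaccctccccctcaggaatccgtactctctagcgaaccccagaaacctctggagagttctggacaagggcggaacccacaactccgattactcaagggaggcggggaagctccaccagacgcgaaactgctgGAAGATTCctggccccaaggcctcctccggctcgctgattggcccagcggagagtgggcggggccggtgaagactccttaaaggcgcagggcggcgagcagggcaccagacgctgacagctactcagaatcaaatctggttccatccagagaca
Dnajb4: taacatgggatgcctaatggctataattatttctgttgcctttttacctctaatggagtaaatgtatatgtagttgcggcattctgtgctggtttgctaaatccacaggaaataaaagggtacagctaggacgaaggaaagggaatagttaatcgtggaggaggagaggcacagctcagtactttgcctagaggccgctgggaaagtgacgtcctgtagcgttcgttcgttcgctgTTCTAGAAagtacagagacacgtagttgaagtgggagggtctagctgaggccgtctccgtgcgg
Hspe1: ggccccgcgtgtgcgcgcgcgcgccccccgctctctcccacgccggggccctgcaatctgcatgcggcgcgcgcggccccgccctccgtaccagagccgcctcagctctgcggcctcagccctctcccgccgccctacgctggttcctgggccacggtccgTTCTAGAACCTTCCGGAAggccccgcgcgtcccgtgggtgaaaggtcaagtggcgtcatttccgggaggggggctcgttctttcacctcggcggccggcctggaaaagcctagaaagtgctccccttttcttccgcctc
Hspa5: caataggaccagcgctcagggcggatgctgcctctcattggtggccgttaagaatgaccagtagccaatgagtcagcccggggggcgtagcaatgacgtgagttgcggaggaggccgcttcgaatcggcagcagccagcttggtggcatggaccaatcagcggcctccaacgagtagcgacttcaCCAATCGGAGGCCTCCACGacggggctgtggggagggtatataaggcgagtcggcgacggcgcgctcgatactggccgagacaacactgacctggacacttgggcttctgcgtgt

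Windows were found for 39 of the 49 members, 53 windows in all, and were searched on both strands for GAANNTTC and TTCNNGAA, the facing pairs of heat shock element units, for the triple of units in which GAANNTTC overlaps TTCNNGAA, and for the ER stress element, CCAAT and CCACG separated by 9 bases of any kind. Either pair was present in 28.3% of member windows and in 15.1% of all 32851 windows of the same length. Among cytosolic members it was present in 32.4% of windows, with Hspa1a, Hspa1b, Hspb1, Hspb8, Dnaja1, Dnajb4, Dnajb6, Cct2, Cct5 and Cct6a as the genes. The triple occurred in windows of Dnajb6, Hspd1 and Hspe1, which is 7.55% of member windows against 0.603% of all windows. These 4 windows are not separate sites, since Dnajb6 has 2 of them and the Hspd1 and Hspe1 windows overlap by 285 bases. The ER stress element occurred in Hspa5, Hsp90b1 and Dnajc3, which is 3 of 9 ER members. By windows this is 30% of ER windows against 0.119% of all windows. A match is a description of the letters and not a measured binding site.

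The levels were log2 values after the authors' normalization. The label of the tissue was checked on smooth muscle markers, all 10 of which reached the minimum level in at least 1 group. Acta2 lay between 13.92 and 14.05, Myh11 between 13.05 and 13.16 and Tagln between 13.36 and 13.55. Cardiac and skeletal muscle markers stood apart in 1 group. Their summed level was 7.44 in WT vehicle, 7.28 in WT E2, 10.28 in DPM vehicle and 7.64 in DPM E2. In at least 1 group 10 of 15 reached the minimum level, most of them in DPM vehicle alone, such as Nppa at 6.81. Tnnt3 was at 2.29, the lowest value on the array, throughout. Smooth muscle sums lay between 15.25 and 15.37, fibroblast sums between 14.00 and 14.12, adipocyte sums between 13.65 and 13.88, endothelial sums between 9.83 and 10.18, macrophage and leukocyte sums between 8.86 and 9.23, mesothelial and epithelial sums between 8.04 and 8.88, and blood cell sums between 7.63 and 8.24. In such tissue, fewer cells of a type and less RNA per cell cannot be told apart. Each ± gives a standard error, which was worked back from a deposited difference and its p.

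The first comparison was E2 against vehicle in WT aortas. Cryab, Dnajb4 and Hspa4, all cytosolic, were higher with E2 at an unadjusted p under 0.05, by 0.42 to 0.66 on the log2 scale, and Dnajb11 in the ER and Hspa9 in mitochondria were lower, by 0.31 and 0.29. These 5 of 49 members (10.2%) compare with 6.79% of all genes. The 3 higher members are 6.12% beside 4.15% of all genes, and the 2 lower ones 4.08% beside 2.64%. No member passed the adjusted threshold of 0.05 with Benjamini-Hochberg adjustment of the authors' deposited limma p-values, where 0% of all genes passed, and the smallest adjusted p was 0.444, for Cryab. Of all members, 23 were higher and 26 lower, with a median of -0.01 beside 0.01 over all genes, of which 51.8% were higher. At the median member error of 0.15, a fold of 1.29 was needed for an unadjusted p of 0.05. A difference of at least 1.5-fold was seen for Dnajb4 alone, beside 2.29% of all genes.

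Cryab encodes alpha B-crystallin, a small heat shock protein that protects actin and desmin filaments in muscle. Its level was 9.41 in WT vehicle, 9.98 in WT E2, 9.50 in DPM vehicle and 9.89 in DPM E2. Both E2 groups lay above both vehicle groups. The WT difference was 0.58 ± 0.15 (the authors' unadjusted p = 0.00743), the DPM difference 0.39 ± 0.20 (p = 0.097), and the difference between the responses -0.19 ± 0.25 (p = 0.475). A separate Cryab probe set gave 0.58 ± 0.20 in WT and 0.39 in DPM. Cryab is also abundant in heart and skeletal muscle. DPM vehicle held the highest sum of those markers, while its Cryab level was 0.10 above that of WT vehicle and below both E2 groups. Their part in the Cryab values was not tested.

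Dnajb4, a J-domain partner of cytosolic Hsp70, stood at 9.46 in WT vehicle, 10.12 in WT E2, 9.37 in DPM vehicle and 9.90 in DPM E2. Again both E2 groups were above both vehicle groups. E2 was followed by a 1.59-fold higher level in WT, 0.66 ± 0.26 (the authors' unadjusted p = 0.0405), and by a difference of 0.52 ± 0.35 in DPM (p = 0.177). The other Dnajb4 probe set gave 0.65 in each genotype. Its promoter, printed above, holds 1 TTCNNGAA pair close to the gene start.

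Hspa4, an Hsp70 relative that acts as a nucleotide exchange factor, stood at 9.40 in WT vehicle, 9.83 in WT E2, 9.36 in DPM vehicle and 9.73 in DPM E2. It had the same order of groups as Dnajb4. The difference was 0.42 ± 0.16 in WT (the authors' unadjusted p = 0.0401) and 0.37 ± 0.22 in DPM (p = 0.140), and the responses differed by -0.05 ± 0.27. For Cryab, Dnajb4 and Hspa4 the differences between the responses were -0.19, -0.14 and -0.05, each smaller than its error.

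Dnajb11 is the ER J-domain protein that hands substrates to BiP. Its level was 5.92 in WT vehicle, 5.61 in WT E2, 5.65 in DPM vehicle and 5.80 in DPM E2, close to the minimum level. WT vehicle was the highest group. The WT difference was -0.31 ± 0.10 (the authors' unadjusted p = 0.0227) and the DPM difference 0.16 ± 0.14 (p = 0.302). Hspa9, or mortalin, is the mitochondrial Hsp70 that pulls imported chains into the matrix. Its level was 10.57 in WT vehicle, 10.28 in WT E2, 10.22 in DPM vehicle and 10.32 in DPM E2. WT vehicle stood above the other 3 groups, which lay within 0.10 of each other. The WT difference was -0.29 ± 0.09 (the authors' unadjusted p = 0.0195), and the other Hspa9 probe sets at the minimum level gave -0.18 and -0.28, neither with an unadjusted p under 0.05. The median WT difference over the Hspa9 probe sets was -0.28. The median of the authors' unadjusted p-values, taken separately, was 0.156, which ends its unadjusted call. The 2 medians come from different probe sets, so that p does not test that difference.

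**Figure D1:**
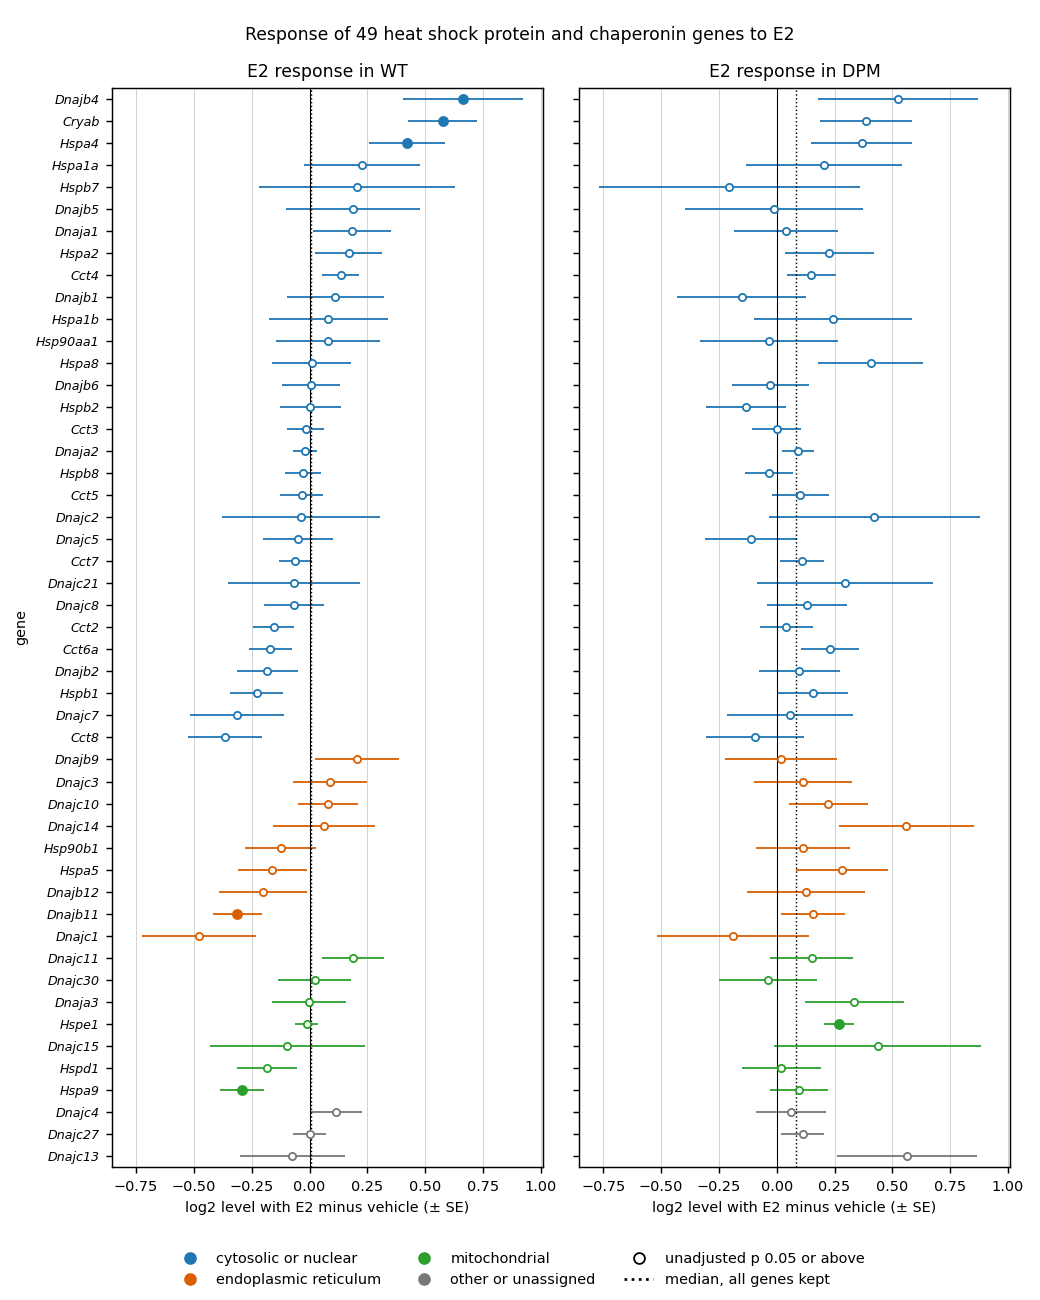
Log2 level with E2 minus vehicle (x axis, bars: recovered standard error) for each of the 49 members (y axis, coloured by compartment) in WT and in DPM, with filled points for an unadjusted p under 0.05 and a dotted line at the median of all genes. Dnajb4 at 0.66 and Cryab at 0.58 are the highest WT values, and Hspe1 at 0.27 is the filled point in DPM.

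The second comparison was E2 against vehicle in DPM aortas. One member, Hspe1, had an unadjusted p under 0.05 (2.04%), beside 5.2% of all genes. It was higher, beside 4.23% of all genes that were higher at that p, and no member was lower, beside 0.971%. None passed the adjusted threshold, which 0.0194% of all genes passed, and the smallest adjusted p was 0.688. Of the 49 members, 38 were higher with E2 and 11 lower, a share of 77.6% beside 65.9% of all genes, with a median of 0.11 beside 0.08. Centring each contrast on the median of all genes left 31 of 49 members higher beside 50% of all genes, and quantile normalization left 33 beside 55.5%. In this same contrast 18 of 18 hybridization control probe sets were lower, with a median of -0.47, the Gapdh control differed by -1.21 at its 5′ end and 0.10 at its 3′ end, and the cardiac and skeletal muscle sum went from 10.28 to 7.64. Their part in the members' DPM values was not tested. No member reached 1.5-fold, which 3.94% of all genes did. At the median member error of 0.20, a fold of 1.40 was needed for an unadjusted p of 0.05.

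Hspe1 stood at 9.00 in WT vehicle, 8.99 in WT E2, 8.96 in DPM vehicle and 9.23 in DPM E2. The other 3 groups lay within 0.05 of each other, and DPM E2 was above them. The DPM difference was 0.27 ± 0.07 (the authors' unadjusted p = 0.00532), a fold of 1.21, against -0.01 ± 0.05 in WT (p = 0.809). Its error was the smallest among the members. This probe set has an ID ending in _s_at, which marks probes shared by several transcripts. The other Hspe1 probe set, at levels between 6.25 and 6.39, gave 0.13 in DPM (the authors' unadjusted p = 0.0844) and -0.02 in WT.

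Hspd1, which forms the chamber that Hspe1 closes, is encoded head to head with it, and the promoter windows of the pair overlap by 285 bases for starts that lie 216 bases apart. Its level was 9.99 in WT vehicle, 9.80 in WT E2, 9.85 in DPM vehicle and 9.87 in DPM E2. The highest group was WT vehicle, not DPM E2. The DPM difference was 0.02 ± 0.17 (the authors' unadjusted p = 0.912) and the WT difference -0.18 ± 0.13 (p = 0.197). Values of the pair thus lay apart in DPM E2 on the probe sets used, but the difference between 2 genes was not tested. On the other Hspe1 probe set DPM E2 was not above the WT groups, with 6.39 in WT vehicle, 6.38 in WT E2, 6.25 in DPM vehicle and 6.38 in DPM E2. A further neighbouring pair is Cryab and Hspb2, whose gene models overlap. Hspb2, a small heat shock protein of muscle, had levels from 5.88 to 6.04 and a WT difference of 0.00 ± 0.13, beside 0.58 for Cryab.

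The Hsp70 genes were the family with every kept member higher with E2 in DPM, 7 of 7, with a median of 0.24 beside 0.08 over all genes. The count was also 7 of 7 after centring and after quantile normalization. Of all genes, 65.9% were higher, 50% after centring and 55.5% after quantile normalization. The count holds for the probe sets used, since other Hspa9 probe sets at the minimum level gave 0.34 and -0.18 in DPM. None of the 7 had an unadjusted p under 0.05 in DPM. Hspa8, the constitutive cytosolic Hsp70, stood at 13.17 in WT vehicle, 13.18 in WT E2, 12.92 in DPM vehicle and 13.33 in DPM E2. DPM vehicle was lowest and DPM E2 highest, with a DPM difference of 0.41 ± 0.23 (the authors' unadjusted p = 0.121) and a WT difference of 0.01 ± 0.17. Its other probe sets gave 0.64, 0.41 and 0.05 in DPM and 0.23, 0.14 and -0.65 in WT. Hspa1b was at 10.23 in WT vehicle, 10.31 in WT E2, 10.37 in DPM vehicle and 10.62 in DPM E2, with differences of 0.08 ± 0.26 in WT and 0.24 ± 0.34 in DPM. Hspa1a was at 8.49 in WT vehicle, 8.72 in WT E2, 8.86 in DPM vehicle and 9.06 in DPM E2, with 0.23 ± 0.25 in WT and 0.20 ± 0.34 in DPM. Both genes encode the stress-inducible Hsp70 and are near-identical copies, so their probe sets may share signal and their separate values are uncertain. In both, the 2 DPM groups lay above the 2 WT groups. Hspa2, known for its part in sperm formation, showed this order too, from 7.26 in WT vehicle and 7.43 in WT E2 to 7.60 in DPM vehicle and 7.83 in DPM E2.

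**Figure D2:**
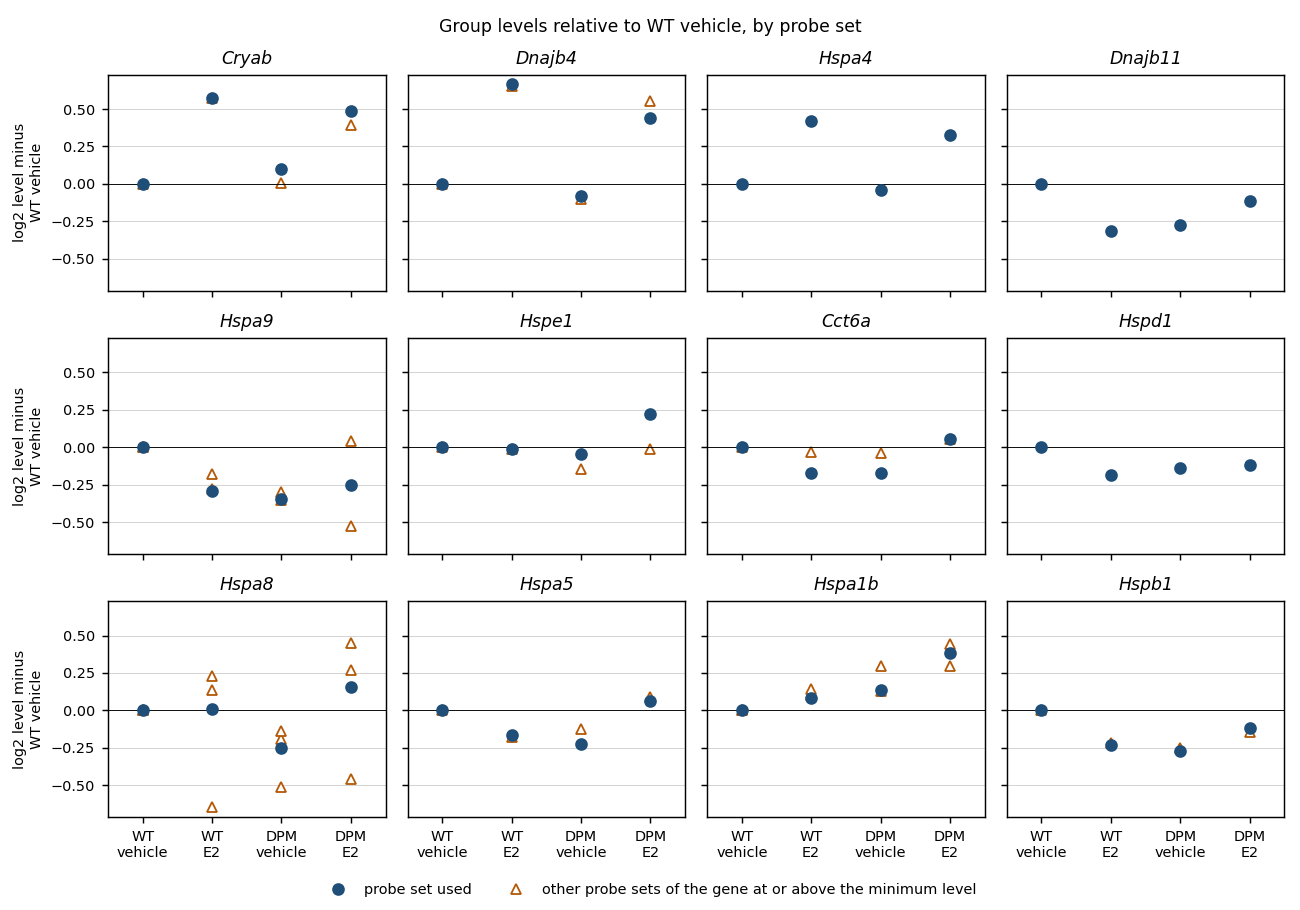
Log2 level minus that of WT vehicle (y axis) in the 4 groups (x axis) for 12 members, with filled circles for the probe set used and open triangles for other probe sets at the minimum level, 1 deposited level per group and so no error bars. Cryab, Dnajb4 and Hspa4 are high in both E2 groups, Hspa9 and Dnajb11 lie below WT vehicle in the other 3 groups for the probe set used, and the probe set used for Hspe1 is high in DPM E2.

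The third comparison asked whether the blocked signalling changed the response, as the DPM response minus the WT response. Hspe1, Dnajb11, Hspa9 and Cct6a had a positive difference at an unadjusted p under 0.05, which is 8.16% of the members beside 4.19% of all genes and beside 3.16% that were positive at that p. No member was negative at that p, beside 1.03%. None passed the adjusted threshold, which 0.0194% of all genes passed, and the smallest adjusted p was 0.989. The sizes were 0.28 ± 0.08 for Hspe1 (the authors' unadjusted p = 0.0122), 0.47 ± 0.17 for Dnajb11 (p = 0.0338), 0.39 ± 0.16 for Hspa9 (p = 0.0459) and 0.40 ± 0.16 for Cct6a (p = 0.0395). After centring on the median of all genes, which was 0.07, Hspe1 alone of these kept an unadjusted p under 0.05. Hspe1 in turn lost it without probe sets ending in _x_at or _s_at, where the difference was 0.15, and with the median over its probe sets, where it was 0.21. The difference was above 0 in 32 of 49 members (65.3%), with a median of 0.14, and in 61.9% of all genes, with the median of 0.07. Centred values were above 0 in 28 members and quantile normalized values in 30, beside 50% and 55.8% of all genes.

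In 22 of 49 members (44.9%) the level was lower in WT and higher in DPM with E2, beside 30.6% of all genes, and in 7 members it was the reverse, 14.3% beside 16.5%. Such counts were not made after rescaling, and after centring 31 instead of 38 members were higher in DPM. Dnajb11, Hspa9, Cct6a and Hspe1 all belong to the 22, a pair of signs that a positive difference between the responses favours. One further member passed 1.5-fold, beside 6.91% of all genes: Dnajc13, a J-domain protein of endosomes, with 0.64 ± 0.38 (the authors' unadjusted p = 0.138). Its level was 5.49 in WT vehicle, 5.41 in WT E2, 5.08 in DPM vehicle and 5.65 in DPM E2, all close to the minimum level. The low DPM vehicle level set its order of groups.

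The cytosolic chaperonin was covered by 7 of its subunits. In WT, 6 of 7 were lower with E2 on the probe sets used, with a median of -0.06, where 51.8% of all genes were higher. In DPM 6 of 7 were higher, with a median of 0.10, beside 65.9% of all genes, and after centring 4 of 7 were, with a median of 0.02, beside 50%. The difference between the responses was above 0 in 7 of 7 subunits, with values from 0.01 for Cct4 to 0.40 for Cct6a and a median of 0.17, beside 61.9% of all genes. After centring and after quantile normalization it was above 0 in 5 of 7, beside 50% and 55.8% of all genes. Cct6a stood at 9.88 in WT vehicle, 9.71 in WT E2, 9.71 in DPM vehicle and 9.94 in DPM E2. Its groups crossed: WT vehicle and DPM E2 were high, WT E2 and DPM vehicle low. The other Cct6a probe set gave 0.13 for the difference between the responses.

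Cct8 had the lowest E2 difference of the chaperonins in WT, -0.36 ± 0.16 (the authors' unadjusted p = 0.0605), with 9.02 in WT vehicle, 8.66 in WT E2, 8.68 in DPM vehicle and 8.58 in DPM E2. WT vehicle was above the other 3 groups. Cct4 was the subunit with a higher level in WT, at 9.42 in WT vehicle, 9.56 in WT E2, 9.50 in DPM vehicle and 9.65 in DPM E2, a WT difference of 0.13 ± 0.08. That value comes from an _x_at probe set, and the other 2 Cct4 probe sets at the minimum level gave -0.07 and -0.02 in WT. Cct2 was at 11.08 in WT vehicle and between 10.89 and 10.93 in the other 3 groups. Cct3, Cct5 and Cct7 varied by at most 0.15 over the 4 groups on the probe sets used. There the E2 differences of these 3 lay between -0.06 and -0.02 in WT and between 0.00 and 0.11 in DPM. Other Cct3 probe sets at the minimum level gave -0.01, 0.05 and 0.27 for the difference between the responses. The last of these also had 0.21 in DPM (the authors' unadjusted p = 0.0439). The other Cct2 probe sets gave 0.34 and 0.29 for the difference between the responses, and the other Cct7 probe set gave 0.16. For the E2 difference in WT, that Cct7 probe set gave 0.06 and the other Cct3 ones 0.02, -0.09 and -0.07. Those of Cct2 gave -0.11 and -0.14 in WT, and that of Cct6a gave -0.03. Tcp1, the remaining measured subunit of the same ring, was listed with the partner genes and not with the members. It stood at 9.09 in WT vehicle, 8.94 in WT E2, 8.98 in DPM vehicle and 9.16 in DPM E2, and its responses differed by 0.33 ± 0.12 (the authors' unadjusted p = 0.0271). That value includes the median of all genes, 0.07, and the Tcp1 call after centring was not examined.

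**Figure D3:**
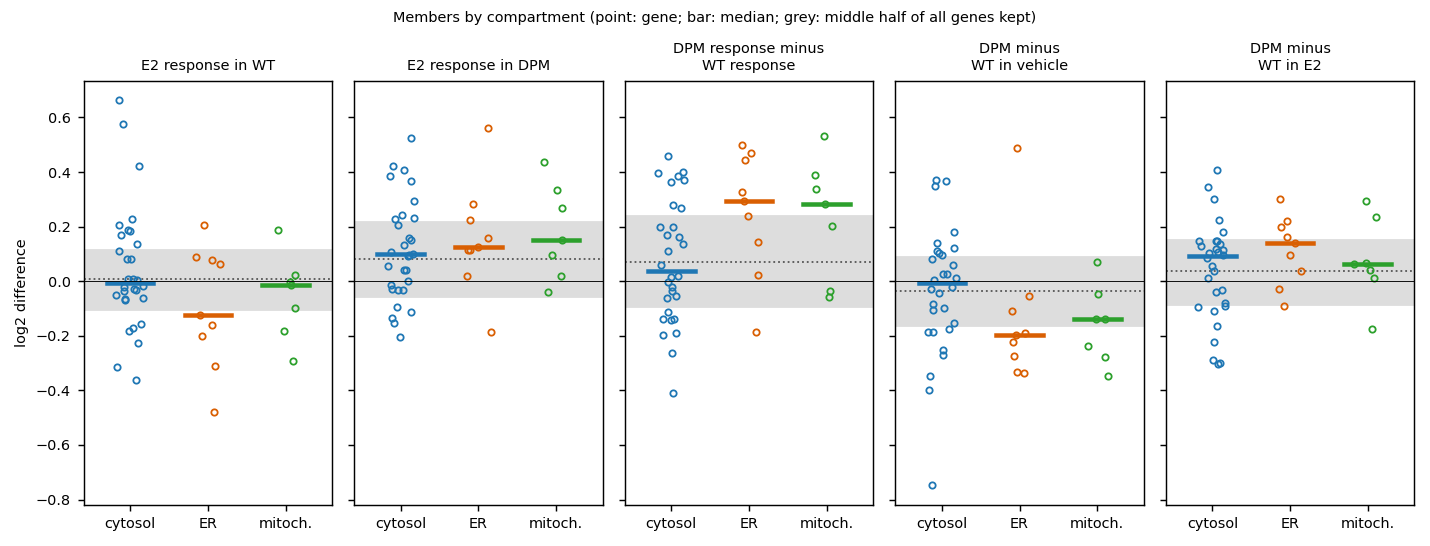
Log2 difference (y axis) of cytosolic, ER and mitochondrial members in 5 comparisons, with 1 point per gene, a bar at the compartment's median, a dotted line at the median of all 5151 genes and grey over their middle 50%. For the DPM response minus the WT response the medians are 0.29 for ER, 0.28 for mitochondrial and 0.04 for cytosolic members, beside 0.07 for all genes.

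The plot of members by compartment sets these groups side by side. The ER members had medians of -0.13 in WT, 0.13 in DPM and 0.29 for the difference between the responses, and the mitochondrial members -0.01, 0.15 and 0.28. The cytosolic members had -0.01, 0.10 and 0.04, and the median of 0.04 changed sign to -0.03 after centring. The difference between the responses was above 0 in 8 of 9 ER members (88.9%), 5 of 7 mitochondrial members (71.4%) and 17 of 30 cytosolic members (56.7%), beside 61.9% of all genes. These counts use 1 probe set per gene. Other probe sets at the minimum level gave -0.31 for Dnajc1, -0.27 for Dnajc14, and -0.04 and 0.16 for Dnajc10. Those of Hspa5, Hsp90b1, Dnajc3, Hspa9 and Hspe1 at that level were all above 0. The compartments were described and not tested against each other.

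Hspa5 (BiP), the main ER Hsp70, which keeps the sensors of the unfolded protein response inactive, stood at 12.37 in WT vehicle, 12.21 in WT E2, 12.15 in DPM vehicle and 12.43 in DPM E2. WT vehicle and DPM E2 were high and the other 2 groups low, with -0.16 ± 0.15 in WT, 0.28 ± 0.20 in DPM and 0.44 ± 0.25 for the difference between them (the authors' unadjusted p = 0.124). A second Hspa5 probe set gave -0.18 in WT and 0.21 in DPM. Hsp90b1, the ER Hsp90 known as Grp94, was at 9.98 in WT vehicle, 9.86 in WT E2, 9.65 in DPM vehicle and 9.77 in DPM E2. Both DPM groups were lower than both WT groups for this probe set, but not for the other one at the minimum level, with 9.36, 9.27, 9.37 and 9.33 in the same order. The response difference of Hsp90b1 was 0.24 ± 0.25. Dnajb9, an ER J-domain protein induced by the unfolded protein response, was the ER member with a value below 0, at -0.19 ± 0.30. It was at 9.21 in WT vehicle, 9.41 in WT E2, 9.70 in DPM vehicle and 9.72 in DPM E2, so both DPM groups were higher. Among the other ER members, Dnajc1, a membrane J-domain protein, had the lowest WT value of all members, -0.48 ± 0.25, at 6.09 in WT vehicle, 5.61 in WT E2, 5.89 in DPM vehicle and 5.70 in DPM E2. Its other probe set had the opposite sign in WT, 0.14. Dnajc14 had the highest DPM value of the ER members, 0.56 ± 0.29, with 5.11 in WT vehicle, 5.17 in WT E2, 4.77 in DPM vehicle and 5.33 in DPM E2, and its other probe set gave 0.16. Neither had an unadjusted p under 0.05. Dnajc10, a J-domain protein that also reduces disulfide bonds, and Dnajc3, which binds BiP and restrains a stress kinase, had 0.08 in WT and 0.22 in DPM for Dnajc10 and 0.09 and 0.11 for Dnajc3. The other 3 Dnajc3 probe sets at the minimum level gave -0.20, -0.21 and -0.19 in WT. Hspa5, Hsp90b1 and Dnajc3, the ER genes whose windows hold the ER stress element, had response differences of 0.44, 0.24 and 0.02 for the probe sets used. The other Hsp90b1 probe set gave 0.05 and the other Dnajc3 probe sets 0.30, 0.22 and 0.26.

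Among mitochondrial J-domain members, Dnaja3, a partner of Hspa9, had 0.34 ± 0.27 for the difference between the responses. Dnajc15, which is linked to the import channel, had 0.53 ± 0.56, and Dnajc11 and Dnajc30 had -0.04 and -0.06. None of the 4 had an unadjusted p under 0.05 in any contrast.

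For Hsp90aa1 and Dnajb1 the E2 differences were smaller than their errors in both genotypes. Hsp90aa1, the inducible cytosolic Hsp90, was at 10.79 in WT vehicle, 10.87 in WT E2, 10.79 in DPM vehicle and 10.76 in DPM E2, with 0.08 ± 0.22 in WT and -0.03 ± 0.30 in DPM. Dnajb1, the main J-domain partner of inducible Hsp70, was at 8.64 in WT vehicle, 8.75 in WT E2, 9.01 in DPM vehicle and 8.86 in DPM E2. Its differences were 0.11 ± 0.21 in WT and -0.15 ± 0.28 in DPM. Hspb1, the small heat shock protein that binds actin, was at 11.30 in WT vehicle, 11.07 in WT E2, 11.03 in DPM vehicle and 11.18 in DPM E2. It was lower by 0.23 ± 0.11 in WT (the authors' unadjusted p = 0.0904) and higher by 0.16 ± 0.15 in DPM, a difference of 0.38 ± 0.19 (p = 0.0871). Cytosolic J-domain genes other than Dnajb4 gave no unadjusted p under 0.05 on the probe sets used. Dnajc7, which bridges Hsp70 and Hsp90, stood at 6.21 in WT vehicle, 5.89 in WT E2, 6.02 in DPM vehicle and 6.07 in DPM E2, with -0.31 ± 0.20 in WT. Dnaja1 and Dnaja2, general partners of Hsp70, had 0.19 ± 0.17 and -0.02 ± 0.05 in WT. A second Dnaja1 probe set gave 0.29 in WT (the authors' unadjusted p = 0.0474). Dnajb6, a J-domain protein that limits aggregation and whose window holds the triple of units, lay between 8.94 and 9.06. The inducible genes Hspa1a, Hspa1b, Hsp90aa1 and Dnajb1 had no unadjusted p under 0.05, and an E2 effect on Hspa1a of under 1.52-fold in WT would not have reached it at the recovered error.

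The small heat shock proteins had the lowest family median of the difference between the responses, -0.14 beside 0.07 over all genes. Of the 5, 4 were below 0 and 1 above under each of the 3 scalings. Of all genes, 61.9% were above 0, 50% after centring and 55.8% after quantile normalization. Before rescaling, each of the 4 values was smaller than its error, among them -0.41 ± 0.71 for Hspb7 and -0.003 ± 0.13 for Hspb8. Hspb7, a small heat shock protein of muscle, was at 9.59 in WT vehicle, 9.80 in WT E2, 9.70 in DPM vehicle and 9.50 in DPM E2, with -0.20 ± 0.57 in DPM. Its other probe sets gave -1.83 ± 1.65 and -1.09 ± 1.07 in DPM. The first of these reached the minimum level in DPM vehicle alone, at 5.69, so its fall is partly set by that threshold. Hspb8, which works with Bag3 in muscle, was between 8.70 and 8.78 in all 4 groups, and 1 of its other probe sets gave -1.01 in DPM while another gave -0.01. Beside these values, the Gapdh control probe sets gave -1.21 at the 5′ end, -0.64 in the middle and 0.10 at the 3′ end in DPM, and 0.54, 0.28 and -0.03 in WT. The median of the hybridization controls was 0.02 in WT. Their part in the Hspb7 and Hspb8 values was not tested.

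**Figure D4:**
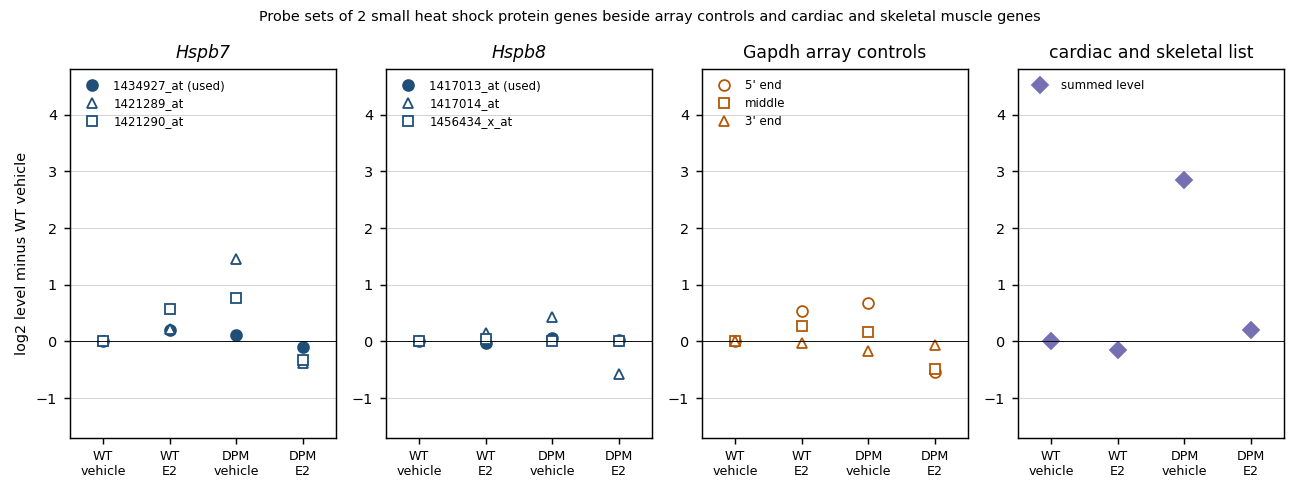
Log2 level minus that of WT vehicle (y axis) in the 4 groups (x axis) for the probe sets of Hspb7 and Hspb8 (filled: used), the Gapdh array controls and the summed cardiac and skeletal muscle markers. From DPM vehicle to DPM E2 the open Hspb7 symbols differ by -1.83 ± 1.65 and -1.09 ± 1.07, and the Gapdh 5′ control by -1.21.

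In all, 27 members had more than 1 probe set at the minimum level. All probe sets of a gene had 1 sign in 16 of these in WT, in 20 in DPM and in 19 for the difference between the responses. Cryab, Hspa5 and Dnajb4 were among those with 1 sign in both genotypes.

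DPM and WT were also set against each other within each treatment, for which no deposited p exists. The error of the difference between the responses served as the largest possible error. With vehicle, 32 of 49 members were lower in DPM (57.9% of all genes), with a median of -0.10 beside -0.03, and 8 of 9 ER and 6 of 7 mitochondrial members were among them. The medians were -0.20 for ER, -0.14 for mitochondrial and -0.01 for cytosolic members. The ER and mitochondrial counts held after centring and after quantile normalization, where 50% and 47.1% of all genes were higher in DPM. They use 1 probe set per gene. The other Dnajc14 probe set at the minimum level was higher in DPM vehicle, at 4.999 beside 4.616 in WT vehicle. That of Hsp90b1 was also higher, at 9.37 beside 9.36. Those of Hspa5, Dnajc1, Dnajc10, Dnajc3, Hspa9 and Hspe1 at that level were all lower in DPM vehicle. With E2, 33 of 49 were higher in DPM, 67.3% beside 58.4% of all genes, with a median of 0.09 beside 0.04. DPM vehicle was the lowest of the 4 groups in 22 of 49 members (44.9%) and in 36.6% of all genes, and DPM E2 was the highest in 20 members (40.8%) and in 38.1% of all genes. These comparisons share their groups with the responses above and are not separate evidence.

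One member passed 1.5-fold between the genotypes with vehicle, beside 3.24% of all genes. This was Dnajc2, a ribosome-bound J-domain protein, at 5.56 in WT vehicle, 5.52 in WT E2, 4.81 in DPM vehicle and 5.23 in DPM E2, a difference of -0.75 with an error of at most 0.57. Its other probe set at the minimum level stood at 5.19 in WT vehicle and 5.04 in DPM vehicle, a smaller gap. No member passed 1.5-fold with E2, beside 2.17% of all genes. At the largest possible error no member had an unadjusted p under 0.05 with vehicle, beside 1.07% of all genes. With E2, Hspe1 was 0.24 higher in DPM, with an unadjusted p = 0.0261 at the largest error that the authors' deposited p-values allow, and this 1 member is 2.04% beside 1.44% of all genes. The other Hspe1 probe set stood at 6.38 in both E2 groups, so this difference rests on the _s_at probe set.

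The other genes of the 3 folding systems were described beside the members. Of 26 heat shock factors and cytosolic partners, 20 were kept, and Tcp1 alone had an unadjusted p under 0.05, for the difference between the responses. Among all genes, 6.79% had such a p in WT, 5.2% in DPM and 4.19% for the difference between the responses. Hsf2 was at the lowest level of the array, and Hsf1 was not analysed here. The medians of the 20 were 0.02 in WT, 0.13 in DPM and 0.12 for the difference. Of 12 genes of mitochondrial folding and proteolysis, 9 were kept, none had an unadjusted p under 0.05 in any contrast, and their medians were -0.03, 0.16 and 0.19.

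Of 24 ER folding and unfolded protein response genes, 21 were kept. In WT 4 of these were higher with E2, beside 51.8% of all genes, and the median was -0.10 beside 0.01. At an unadjusted p under 0.05, 2 were lower in WT, beside 2.64% of all genes, and 2 were higher in DPM, beside 4.23%. Pdia6, a protein disulfide isomerase, was lower in WT by 0.35 ± 0.07 (the authors' unadjusted p = 0.00194). Ero1a, the oxidase that recharges these isomerases, was lower in WT by 0.40 ± 0.14 (the authors' unadjusted p = 0.0292) and had -0.36 ± 0.19 in DPM. Canx, a membrane lectin chaperone, stood at 9.58 in WT vehicle, 9.56 in WT E2, 9.63 in DPM vehicle and 9.88 in DPM E2. DPM E2 stood above the other 3 groups, by 0.25 ± 0.06 over DPM vehicle (the authors' unadjusted p = 0.00487). Manf, a BiP-binding stress factor, was higher in DPM by 0.26 ± 0.11 (the authors' unadjusted p = 0.048). The DPM median of the 21 genes was -0.02 and the median of the difference 0.06, near the 0.07 of all genes. Canx, Pdia6 and Manf had positive differences between the responses at an unadjusted p under 0.05, of 0.27, 0.31 and 0.36. They are 3 of the 21, beside 3.16% of all genes that were positive at that p. Their values include the median of all genes, and their calls after centring were not examined.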

How the data were processed

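Samples were grouped by genotype and treatment from the titles. The authors' deposited tables give 1 log2 level per group and probe set, 3 log2 differences and an unadjusted p-value for each, and per the submitters' processing notes GCRMA and limma were used, with no version or role given. Expression was estimated from array intensities, so no read depth applies and the number of arrays limits the precision.

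From these, 1 probe set per symbol was taken, the one with the highest mean of the 4 groups, among 20393 probe sets with a single symbol. A gene was kept where any group reached a level of 5. Standard errors were recovered from folds and p-values at 6.44 degrees of freedom, where the DPM error is 1.33 and that of the difference between the responses 1.66 times the WT error. The deposited p-values were adjusted by the Benjamini-Hochberg method over 5151 genes, threshold 0.05. The design had allowed for adjusted p-values, and those deposited are unadjusted. Members with an unadjusted p under 0.05 or at least 1.5-fold were named, with a fixed set of main chaperones, and of partner genes those with an unadjusted p under 0.05. The members and lists were chosen with earlier results of these data known. Members with no probe set of a single symbol, Hsp90ab1, Hspa13 and Hspb6 among them, were not analysed here. The recovery was tested on simulated data. Python 3.11.15, pandas 2.3.3 and scipy 1.17.1 were used.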

Additional observations from a re-analysis of the deposited data

Results flagged for a closer look

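For 4 members the WT and DPM responses to E2 differed at an unadjusted p under 0.05, and none of them passed the adjusted threshold over all genes (adjusted p = 0.989 for each, from the authors' deposited limma p-values). The DPM response exceeded the WT response by 0.28 for Hspe1, 0.47 for Dnajb11, 0.39 for Hspa9 and 0.40 for Cct6a on the log2 scale. The 4 are a share of 8.16% of the members beside 4.19% of all genes. The Hspe1 value was 0.15 without probe sets ending in _x_at or _s_at, which ends its unadjusted call. After centring on the median of all genes, Dnajb11, Hspa9 and Cct6a lost theirs. Dnajb11 also lost its call after quantile normalization, and Cct6a and Hspe1 lost theirs with the median over probe sets.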

How the results depend on the processing

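No adjusted call was made for a member under any of the 6 alternatives. The count of members with an unadjusted p under 0.05 for the difference between the responses was 4, and it was 1 after centring on the median of all genes and 2 with the median over all probe sets of a symbol. For that last alternative, differences and p-values were each taken as a median, so such a p is not a test of the difference beside it. In DPM the count of 1 became 0 without probe sets ending in _x_at or _s_at, where Hspe1 had 0.13. Hspe1's difference between the responses lost its unadjusted call there, at 0.15, and with the median over probe sets, at 0.21. In WT, Hspa9 lost its call with that median, at -0.28, and Cct8 gained one with quantile normalization. Of 58 single-gene values under the alternatives, 49 kept their direction and side of the threshold and 9 kept the direction alone, among them Cct6a at 0.33, Hspa9 at 0.32 and Dnajb11 at 0.40 for the difference between the responses after centring. The cytosolic median for that difference turned from 0.0379 to -0.0317 after centring. The cytosolic median in WT turned from -0.00659 to 0.00570 at a minimum level of 6, and to 0.00634 with the median over probe sets. These alternatives are limited by the deposited errors, which each keeps. No paired analysis was possible because 1 level per group was available, and for the same reason no replicate could be left out.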
